A study of Mus musculus with 12 samples.

Results

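The genes described here are 40 protein-coding genes that build ribosomes, out of 21900 protein-coding genes of unique symbol in the mouse annotation. They were chosen by name, as known factors of ribosome biogenesis, with earlier results of these data known. For each gene, peaks of 12 deposited lists were taken up to 10 kb from either annotated end (build mm10), and the covered length in base pairs was compared between marks and genotypes. The lists come from chromatin immunoprecipitation followed by sequencing (ChIP-seq) for 3 histone marks, H3K27ac, H3K4me1 and H3K4me3, in bone marrow cells sorted for the surface receptor cKit, which marks blood stem and progenitor cells. For each mark, 2 libraries came from wild type mice (WT) and 2 from mice labelled Phf6R274X Tg (Tg), a transgene that carries the stop mutation R274X of the chromatin protein Phf6. All mice are on the strain C57BL/6. The labels name neither the promoter that drives the transgene nor the ages of the mice, and they do not say whether replicates are separate animals, so every p-value below measures only the spread between these libraries.

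Ribosome biogenesis starts in the nucleolus, where RNA polymerase I transcribes the ribosomal DNA repeats into a long precursor RNA. Box C/D and box H/ACA small nucleolar ribonucleoproteins (snoRNPs) modify that precursor by methylation and pseudouridylation, and separate sets of assembly factors then fold, cut and export the small (40S) and the large (60S) subunit. Growing progenitor cells spend much of their transcription on this pathway, and MYC, which binds the DNA word CACGTG with its partner MAX, is a known activator of many of its genes. PHF6 is a nucleolar and nuclear protein that has been linked to ribosomal RNA synthesis. H3K4me3 marks active and poised promoters, H3K27ac marks active promoters and enhancers, and H3K4me1 marks enhancers and the flanks of promoters.

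Promoter sequences are shown for the members that hold CACGTG near their start, since H3K4me3 peaks lay over the promoters of all of them in all 4 H3K4me3 libraries. The reference table (RefSeq, GRCm38.p6, the assembly called mm10) matched 35 of the 40 genes with a promoter window of 250 bases before the annotated start and 50 bases from the start on. Fbl, Bop1, Rrs1, Rrp12 and Npm1 were not matched. CACGTG, a palindrome and so the same on both strands, occurred in 9 of the 35 windows (25.7%), against 7.91% of all 17492 windows and 10.4% of the 10178 genes with an H3K4me3 peak over the window in all 4 libraries. The 6 sequences below carry it in capitals. Pes1 and Wdr12, with Bop1, form a complex of the large subunit pathway, Nop2 methylates the large ribosomal RNA, Tsr1, Wdr43 and Utp4 act in the small subunit pathway, and Rrn3 brings RNA polymerase I to its promoter. Each sequence ends at most 30 bases past the start, and Rrn3 holds 2 copies.
Rrn3, chr16:13780479-13780728, plus strand: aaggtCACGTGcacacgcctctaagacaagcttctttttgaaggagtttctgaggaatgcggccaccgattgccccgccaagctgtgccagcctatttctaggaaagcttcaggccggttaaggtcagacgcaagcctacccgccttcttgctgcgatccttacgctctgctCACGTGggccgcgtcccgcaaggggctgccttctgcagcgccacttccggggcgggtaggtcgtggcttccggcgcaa
Tsr1, chr11:74898010-74898109, plus strand: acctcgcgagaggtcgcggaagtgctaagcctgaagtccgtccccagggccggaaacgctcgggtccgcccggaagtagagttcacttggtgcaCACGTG
Wdr43, chr17:71616145-71616244, plus strand: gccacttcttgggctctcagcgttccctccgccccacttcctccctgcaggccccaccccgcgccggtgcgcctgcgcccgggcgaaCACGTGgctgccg
Utp4, chr8:106893570-106893669, plus strand: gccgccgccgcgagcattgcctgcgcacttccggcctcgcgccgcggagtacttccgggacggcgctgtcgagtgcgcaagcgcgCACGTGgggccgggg
Nop2, chr6:125131813-125131912, plus strand: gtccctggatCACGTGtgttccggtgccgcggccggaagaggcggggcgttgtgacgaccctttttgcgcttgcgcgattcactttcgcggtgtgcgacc
Pes1, chr11:3963905-3964004, plus strand: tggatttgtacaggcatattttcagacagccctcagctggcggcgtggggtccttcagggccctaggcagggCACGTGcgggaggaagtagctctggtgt

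The copies in Tsr1, Wdr43, Utp4 and Pes1 begin 24, 17, 15 and 2 bases past the annotated start base, and those in Nop2 and Rrn3 lie before it. The other 3 members with the word, Utp20, Mybbp1a and Ltv1, carry it 37, 40 and 28 bases past the start. In all, 7 of the 9 members with CACGTG had a copy past the start, against 170 of the 1062 genes (16%) with the word among those with H3K4me3 at the start. These counts describe letters in a window and say nothing of which factor binds there.

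Ncl, which encodes the abundant nucleolar RNA-binding protein nucleolin, is shown as a member without CACGTG and with a wide H3K4me3 peak. The capitals mark CCGCCC, which reads GGGCGG on the other strand, the GC box.
Ncl, chr1:86359426-86359573, minus strand: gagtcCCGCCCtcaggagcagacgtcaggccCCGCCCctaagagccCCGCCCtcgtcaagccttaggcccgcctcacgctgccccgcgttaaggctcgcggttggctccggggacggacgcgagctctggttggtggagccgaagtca

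Other words were searched on both strands in the same windows. GGGCGG occurred in 68.6% of the members, against 46.3% of all windows and 67.4% of those with H3K4me3 at the start. The ETS-type word CCGGAA occurred in 45.7% of the members, against 19.1% and 29.1%. The CCAAT box occurred in 31.4% of the members against 39.2% and 38.8%, and TATAAA in 5.71% against 13.3% and 6.68%. The palindromic NRF1 word and the YY1 word, of 10 letters each, were in none of the 35 windows, and in 1.33% and 1.27% of all windows. Different words can share bases at their ends, so these counts are not independent of each other. The members' windows had a median GC content of 58.3%, against 56.3% in all windows and 61.7% in those with H3K4me3 at the start, and a median ratio of observed to expected CpG of 0.840, against 0.577 and 0.780.

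Some members have other features that the choice by name did not use. Small nucleolar RNA genes lie inside 7 of the 40 members (17.5%), against 1.70% of all protein-coding genes, with 5 in Nop56, 4 in Nop58, 3 each in Wdr43 and Gnl3, 2 in Ncl and 1 each in Dkc1 and Tsr1. A gene on the opposite strand starts within 500 bp of the start of 9 of the 35 members (25.7%), against 7.21% of all genes with a promoter window and 12% of those with H3K4me3 at the start. These pairs are Noc4l with Ddx51, Nop14 with Grk4, Nop16 with Higd2a, Rrp9 with Parp3, Utp4 with Chtf8, Utp15 with Ankra2, Polr1a with Ptcd3, Gnl3 with Pbrm1 and Ebna1bp2 with Cfap57. The 20 kb to 40 kb windows of 23 of the 40 members hold the start of at least 1 other gene, so part of the covered length near a member can belong to its neighbour.

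Before the values, 3 points bear on the libraries. First, in each of the 4 H3K4me3 lists the peaks are named for the other genotype than the label: both lists labelled WT hold peaks named Tg274, and both lists labelled Tg hold peaks named WT. The H3K27ac and H3K4me1 names match their labels. Every H3K4me3 direction below is given by label, and the sign turns over if the peak names are right. Second, both H3K4me3 replicate 1 libraries had no peak at Xist and 5 (labelled WT) and 4 (labelled Tg) peaks at 4 genes of the Y chromosome (Ddx3y, Eif2s3y, Kdm5d and Uty), while the 10 other libraries had peaks at Xist and none at those Y genes. Last, the H3K4me1 lists differ in extent by replicate number, with 66.3 Mb and 70.7 Mb covered in replicate 1 of WT and Tg and 119.7 Mb and 117.0 Mb in replicate 2. Peak lists ranged from 31257 to 130348 peaks, all with a deposited q-value under 0.05, and Kit itself had at least 1 peak in every library. Read counts are not part of the lists, and the depth behind each peak is unknown.

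Most starts of ribosome biogenesis genes in these cells carried H3K4me3 and H3K27ac, and fewer carried H3K4me1. A gene was counted as marked at the start when a peak overlapped any of its annotated promoter windows. H3K4me3 lay there in all 4 libraries for 35 of 35 members, against 58.2% of all genes with a window. H3K27ac did so for 31 of 35 (88.6%), against 41.4%. H3K4me1 did so for 1 of 35 (2.86%), against 10.6%, and 25 of the 35 had an H3K4me1 peak there in no library, as did 10903 of all 17492 genes. All genes include the silent ones, so the comparison that follows uses the 10178 genes with H3K4me3 at the start in all 4 libraries.

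At the first annotated start with a promoter window, H3K4me1 covered 2.86% of the members in every library, and the gene was Ubtf each time. The range was 7.56% to 18% of the genes with H3K4me3 at the start. For some members, among them Ubtf, Noc2l and Noc3l, the start so taken lies inside the annotated gene span. At Ubtf it is chr11:102320862, on the minus strand, while the span ends at 102323649. At 1 kb downstream of the start, H3K4me1 covered 45.7% and 77.1% of the members in the WT libraries and 40% and 80% in the Tg libraries. Of the genes with H3K4me3 at the start it covered 36.2% to 60.5%. The high values are those of replicate 2 in both genotypes. At 2 kb upstream, H3K27ac covered none of the 35 members in any library, against 3.99% to 6.56% of the genes with H3K4me3 at the start, and H3K4me1 covered 14.3% to 25.7% against 11.6% to 22.2%. The H3K4me3 domain reached 1 kb downstream in 100% and 82.9% of the members in the libraries labelled WT and in 80% and 85.7% in those labelled Tg, against 65.3% to 71.2%. The median distance from the start to the downstream edge of the H3K4me3 peak was 1532 bp in the replicate 1 library labelled WT and 1255.5, 1220 and 1248 bp in the other 3. At the start, H3K27ac covered 91.4% of the members in both WT libraries and 74.3% and 91.4% in the Tg libraries, and the replicate 1 Tg library also has the lowest share, 60.3%, of the genes with H3K4me3 at the start.

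**Figure D1:**
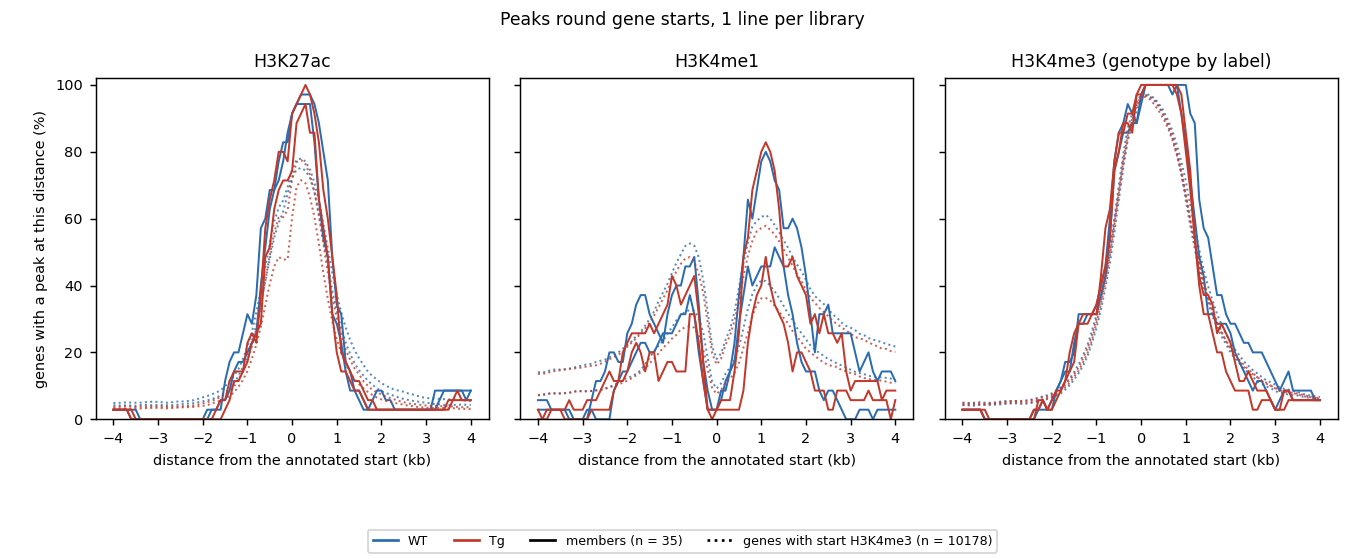
Share of genes with a peak (percent) against the distance from the first annotated start with a promoter window (kb, positive downstream), for each mark, with 1 line per library. Blue is WT and red is Tg. Solid lines are the 35 members and dotted lines the 10178 genes with H3K4me3 at the start in all 4 libraries. H3K4me1 drops to 2.86% of the members at the start itself and reaches 40% to 80% at 1 kb downstream, while H3K4me3 covers 94.3% to 100% at the start.

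Over the whole window of 20 kb to 40 kb, peaks covered a median of 6.13% of a member's window with H3K27ac, 9.01% with H3K4me1 and 9.56% with H3K4me3 (mean of 4 libraries). The medians over all 21900 genes, silent ones included, were 2.47%, 5.51% and 5.12%. Since gene length sets the window, genes are ordered by this share. The share depends on gene length in turn, since Nop10 has a window of 20973 bp and other members have up to 40000 bp. A short gene can thus come first with fewer base pairs covered. Nop10, a small H/ACA protein gene of under 1 kb, came first for H3K27ac (23.0%) and H3K4me3 (35.2%), followed by Ubtf with 19.6% and 26.1%, although in the H3K27ac library of Tg replicate 1 Ubtf (19.1%) exceeded Nop10 (17.9%). For H3K4me1, Nhp2 (29.2%), Rrp12 (25.7%) and Nop2 (23.5%) came first, and their orders overlap between libraries, since Nhp2 ranged from 23.5% to 42.5% and Rrp12 from 19.4% to 31.5%.

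No member passed the test between genotypes in any mark. Covered length was compared on the scale log2(length + 500 bp) after quantile normalization, and "log2 difference" below is Tg minus WT on that scale, which understates differences at genes with little cover. None of the 40 members passed an adjusted p of 0.05 in any mark, where 0.275% of 13079 genes did for H3K27ac (15 higher and 21 lower in Tg, and 0 genes in all without either WT library), 0% of 15833 for H3K4me1 and 0% of 15800 for H3K4me3. At an unadjusted p under 0.05 there was 1 member for H3K27ac (Nop2), 1 for H3K4me1 (Gnl3) and 2 for H3K4me3 (Nop58 and Ncl), against a background of 12.6%, 7.97% and 4.82% of the genes tested. With 2 libraries a group, a miss does not show that the genotypes are alike.

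The members' medians lay close to those of all genes tested. The median log2 difference was 0.05 for H3K27ac, against 0.03 for all genes, with 23 members above 0 and 17 below and a range of -0.45 to 0.64. It was -0.08 for H3K4me1, against 0.00, with 14 above and 26 below and a range of -0.78 to 0.66. By label it was -0.05 for H3K4me3, against 0.00, with 12 above and 28 below and a range of -0.25 to 0.13, and by peak name those signs turn over. Of all genes tested, 7245 lay above 0 and 5834 below for H3K27ac, and 8000 and 7833 for H3K4me1. For H3K4me3 by label, 8011 of all genes lay above 0 and 7789 below. Without normalization the H3K27ac median was -0.18 for the members and -0.20 for all genes, with 3 members above 0 and 37 below, so H3K27ac directions hold only relative to the other genes of a library. In base pairs, the median H3K27ac cover of the members was 2512.5 and 2005.5 bp in WT, against 1797 and 2219 bp in Tg. For H3K4me1 it was 2431.5 and 4472 bp in WT, against 1823 and 3984 bp in Tg, and for H3K4me3 3702 and 3147 bp in the libraries labelled WT and 3192.5 and 3311 bp in those labelled Tg.

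Without any scaling, 1 member (Nop2) had more H3K27ac in both Tg libraries than in both WT libraries, where 5.51% of genes did, and 16 had less, where 45.2% of genes did. For H3K4me1, 0 members lay above (2.6% of genes) and 2, Noc3l and Heatr1, lay below (6.59%). For H3K4me3 by label, 0 lay above (11.7%) and 13 lay below (18.8%). Both Tg lists of H3K27ac also covered less in all, 28.5 and 33.8 Mb, against 45.7 and 36.6 Mb in WT. In bulk chromatin, fewer cells with a peak and less signal per cell cannot be told apart. Neither can be told apart here from a difference in depth, which is unknown.

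**Figure D2:**
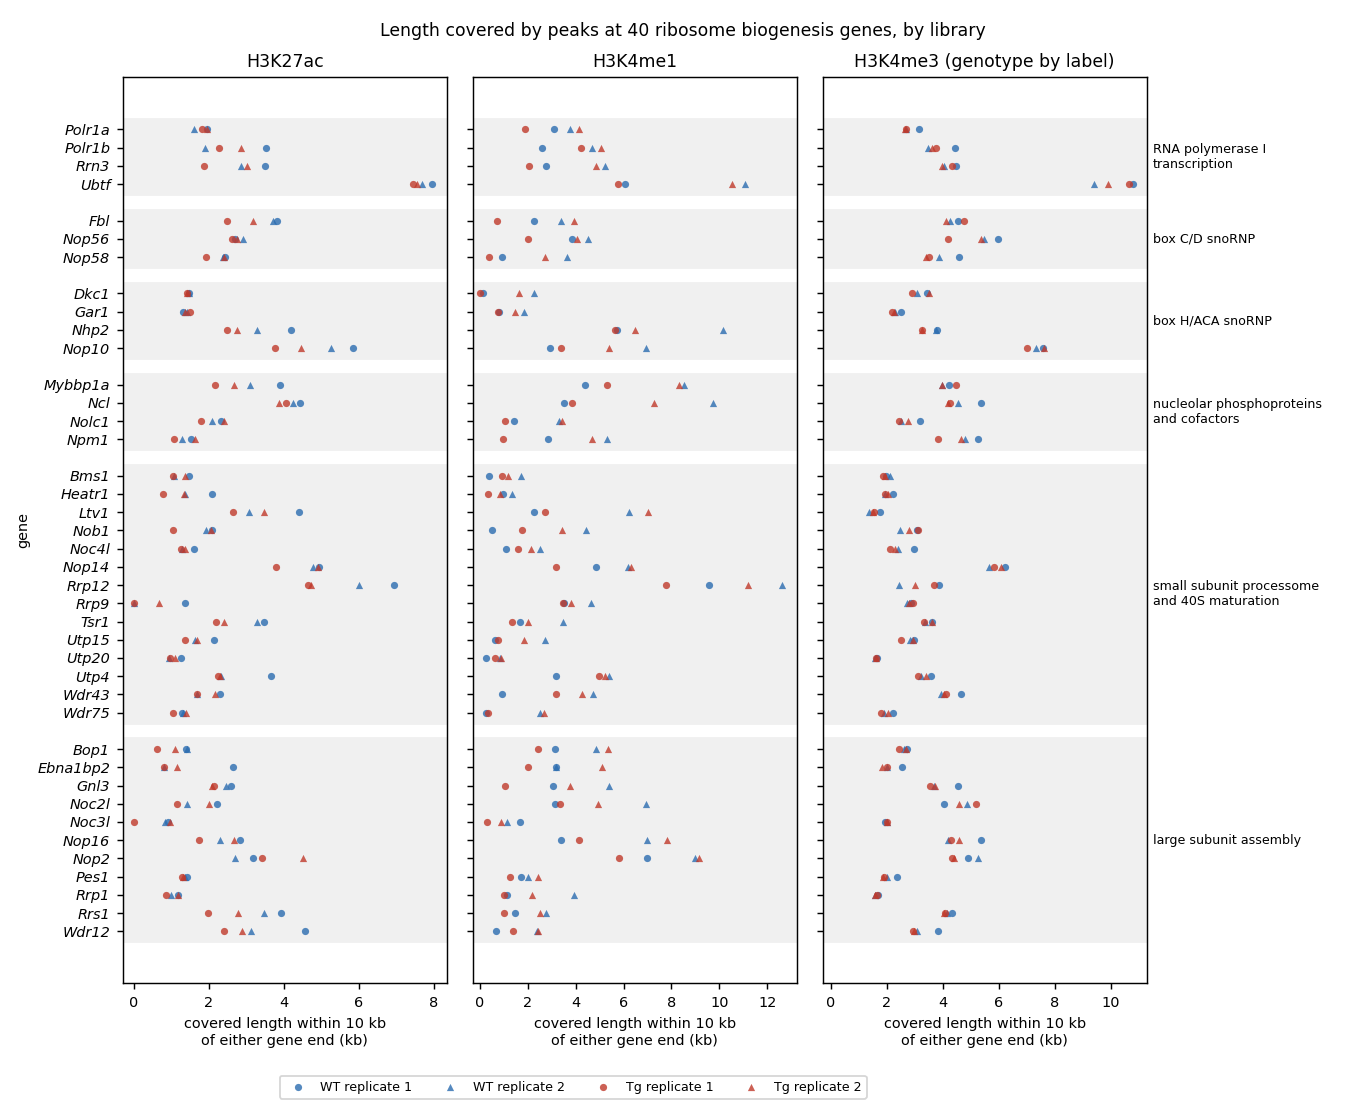
Covered length (kb) in the windows of the 40 members, grouped by role, in the 4 libraries of each mark; circles are replicate 1, triangles replicate 2, blue is WT and red is Tg. In the H3K4me1 panel the triangles of both genotypes mostly lie to the right of the circles, and Ubtf reaches 7450 to 7951 bp of H3K27ac in all 4 libraries.

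Of the RNA polymerase I genes, Ubtf had the longest H3K27ac and H3K4me3 cover of the 40 in base pairs. Ubtf (chr11:102304560-102323649), which encodes UBF, the factor that keeps ribosomal DNA repeats open and active, had 7951 and 7684 bp of H3K27ac in WT and 7450 and 7558 bp in Tg. The Tg values lie below both WT values in base pairs, while the log2 difference relative to other genes was 0.25 ± 0.13 (SE, n = 2 per genotype, adjusted p = 0.531) and -0.06 without normalization. Its H3K4me3 was 10802 and 9397 bp in the libraries labelled WT and 10659 and 9892 bp in those labelled Tg, a log2 difference of 0.00. Its H3K4me1 was 6076 and 11067 bp in WT, against 5769 and 10519 bp in Tg, so the replicates differ far more than the genotypes.

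Polr1a (chr6:71909053-71979435), the largest subunit of the polymerase, had 1959 and 1611 bp of H3K27ac in WT and 1817 and 1941 bp in Tg, all of it in 1 peak over the start. The groups overlap, and the log2 difference was 0.27 ± 0.14 (adjusted p = 0.516). Over the whole gene with 10 kb on each side it was -0.48, so that direction depends on the window. Polr1a had 3095 and 3746 bp of H3K4me1 in WT against 1880 and 4123 bp in Tg, and 3142 and 2671 bp of H3K4me3 in the libraries labelled WT against 2685 and 2654 bp in those labelled Tg. Polr1b, the second-largest subunit, had 2587 and 4700 bp of H3K4me1 in WT and 4203 and 5070 bp in Tg, with a log2 difference of 0.41 ± 0.24 (adjusted p = 0.712) that was -0.12 within 5 kb. Over the 4 genes of this role, with Rrn3, the median log2 differences were 0.23 for H3K27ac, -0.08 for H3K4me1 and -0.05 for H3K4me3 by label.

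In the box C/D group, Nop56 and Nop58, paired core proteins of the methylation particles, had the lowest H3K4me3 differences of the 40. Nop58 (chr1:59684961-59711510) had 4557 and 3867 bp of H3K4me3 in the libraries labelled WT and 3514 and 3406 bp in those labelled Tg, a log2 difference of -0.24 ± 0.07 (unadjusted p = 0.028 and adjusted p = 0.916, limma). Nop56 (chr2:130274367-130279313) had 5959 and 5479 bp against 4164 and 5358 bp, a log2 difference of -0.25 ± 0.14 (adjusted p = 0.916) that was -0.07 without the replicate 1 library labelled Tg. The libraries do not overlap by label for either gene, and by peak name the differences are 0.24 and 0.25. For Fbl, the methyltransferase of the same particles, H3K4me3 was 4553 and 4243 bp against 4735 and 4110 bp, and the groups overlap.

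The other marks at these genes overlap between genotypes, apart from H3K27ac at Fbl. Nop56 had 2703 and 2895 bp in WT, against 2622 and 2740 bp in Tg, and Nop58 had 2427 and 2363 bp against 1923 and 2409 bp. Fbl had 3803 and 3699 bp against 2483 and 3164 bp, so its Tg libraries lie below its WT libraries, with a log2 difference of -0.10 ± 0.14 (adjusted p = 0.803). H3K4me1 was 3857 and 4511 bp against 1988 and 4055 bp at Nop56 and 2249 and 3396 bp against 723 and 3913 bp at Fbl, where the replicate 1 Tg library is the lowest. Their log2 differences were -0.38 and -0.37, with adjusted p-values of 0.750 and 0.832, and without WT replicate 1 the Nop56 difference was -0.08.

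The box H/ACA genes encode the pseudouridylation particle, with Dkc1 as the enzyme and Gar1, Nhp2 and Nop10 as its core partners. Dkc1 (chrX:75095854-75109776) had nearly constant H3K27ac, 1471 and 1460 bp in WT, against 1416 and 1413 bp in Tg, with a log2 difference of 0.16 ± 0.16 (adjusted p = 0.735). Its H3K4me3 was 3435 and 3054 bp in the libraries labelled WT and 2907 and 3490 bp in those labelled Tg, a log2 difference of -0.00. Dkc1 is X-linked, and replicate 1 of both H3K4me3 groups holds Y-gene peaks and no Xist peak. Its part in these values was not tested. H3K4me1 at Dkc1 was 118 and 2261 bp in WT, against 0 and 1647 bp in Tg, so it was called mainly in replicate 2.

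Nop10 (chr2:112261926-112262898) had 5835 and 5262 bp of H3K27ac in WT and 3761 and 4466 bp in Tg. The Tg values lie below both WT values, and the log2 difference relative to other genes was -0.10 ± 0.13 (adjusted p = 0.797). Its H3K4me3 was 7563 and 7340 bp by label WT and 7014 and 7605 bp by label Tg. Nhp2 (chr11:51619773-51623718) had 4189 and 3276 bp of H3K27ac in WT and 2481 and 2749 bp in Tg, and 3783 and 3733 bp of H3K4me3 in the libraries labelled WT against 3263 and 3241 bp in those labelled Tg. Nhp2 thus had lower cover in Tg in both marks by label, with log2 differences of -0.19 ± 0.14 and -0.17 ± 0.07 and adjusted p-values of 0.644 and 0.916. Gar1 had 1305 and 1409 bp of H3K27ac in WT and 1492 and 1350 bp in Tg, and a log2 difference of 0.25 ± 0.19 (adjusted p = 0.654).

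Npm1 encodes nucleophosmin, a nucleolar phosphoprotein that is often mutated in acute myeloid leukaemia, and Ncl encodes nucleolin. Ncl (chr1:86344719-86359455) had 5342 and 4548 bp of H3K4me3 in the libraries labelled WT and 4241 and 4167 bp in those labelled Tg, a log2 difference of -0.20 ± 0.07 (unadjusted p = 0.047, adjusted p = 0.916). Npm1 (chr11:33152498-33164142) had 5239 and 4795 bp against 3814 and 4646 bp, a log2 difference of -0.22 ± 0.12 (adjusted p = 0.916) that was -0.08 without the replicate 1 library labelled Tg. Neither overlaps by label, and by peak name both signs turn over.

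In base pairs, H3K27ac at Ncl lay in the same order, while H3K27ac at Npm1 and H3K4me1 at both genes overlap between genotypes. Ncl had 4435 and 4234 bp of H3K27ac in WT and 4050 and 3859 bp in Tg, and Npm1 had 1516 and 1267 bp against 1054 and 1627 bp, with log2 differences of 0.16 each relative to other genes and of -0.12 and -0.05 without normalization. H3K4me1 at Npm1 was 2847 and 5288 bp in WT, against 978 and 4661 bp in Tg, a log2 difference of -0.56 ± 0.36 (adjusted p = 0.735) that was -0.07 without Tg replicate 1, and at Ncl 3526 and 9716 bp against 3852 and 7269 bp. Nolc1, a chaperone of snoRNPs, and Mybbp1a, a nucleolar cofactor, had H3K27ac differences of 0.15 and -0.20, neither past the test.

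The small subunit group has 14 members, which process the 18S end of the precursor and ripen the 40S particle. Rrp12 (chr19:41859483-41896153), a factor of subunit export, had 6937 and 6003 bp of H3K27ac in WT and 4642 and 4714 bp in Tg, with a log2 difference of -0.13 ± 0.14 (adjusted p = 0.741). Its H3K4me1, the longest cover of any member at 10283 bp on average, was 9571 and 12602 bp in WT, against 7759 and 11199 bp in Tg. Its H3K4me3 was 3867 and 2446 bp by label WT and 3679 and 3012 bp by label Tg, and the difference of 0.10 was -0.09 within 5 kb. Rrp12 thus had less H3K27ac in both Tg libraries, and its other marks overlap between genotypes.

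Heatr1 (chr13:12395375-12438893), a core factor of the precursor RNA's first steps, had 2070 and 1353 bp of H3K27ac in WT against 784 and 1324 bp in Tg, and 961 and 1343 bp of H3K4me1 against 340 and 839 bp. The groups do not overlap in either mark, with log2 differences of -0.30 ± 0.17 (adjusted p = 0.540) and -0.53 ± 0.28 (adjusted p = 0.696). These were -0.02 and -0.04 with only peaks of −log10 q of at least 5, -0.16 and -0.25 without WT replicate 1, and -0.75 and -0.04 over the whole gene with 10 kb on each side. Its H3K4me3 was 2208 and 1923 bp by label WT and 1942 and 2038 bp by label Tg. Wdr43, of the same early group, had the highest H3K4me1 difference of the 40, with 923 and 4708 bp in WT, against 3169 and 4250 bp in Tg (log2 difference 0.66 ± 0.38, adjusted p = 0.717), and 1 of its WT libraries is low, without which the difference was 0.15. Nob1, the nuclease that makes the mature 18S end, had 501 and 4433 bp of H3K4me1 in WT and 1766 and 3424 bp in Tg, likewise with 1 low WT library, and a difference of -0.23 without that library. Its H3K4me3 was 3065 and 2447 bp by label WT and 3105 and 2783 bp by label Tg.

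The other named members of this group differed in the extent of their marks. Utp20 had 1262 and 942 bp of H3K27ac in WT and 948 and 1096 bp in Tg, 1644 and 1578 bp of H3K4me3 by label WT and 1617 and 1596 bp by label Tg, and only 245 and 839 bp of H3K4me1 in WT and 638 and 891 bp in Tg. Ltv1, a 40S export factor, had the shortest H3K4me3 cover, 1748 and 1368 bp by label WT and 1534 and 1492 bp by label Tg. Nop14 had one of the longest, 6226 and 5641 bp by label WT and 5812 and 6058 bp by label Tg. Noc4l had 2959 and 2395 bp of H3K4me3 by label WT and 2094 and 2297 bp by label Tg, a difference of -0.21 ± 0.09 (adjusted p = 0.916). Rrp9, the U3 snoRNP protein, had an H3K27ac peak in only 2 of 4 libraries, with 1367 bp in WT replicate 1, 656 bp in Tg replicate 2 and 0 in the others. Its H3K4me3 was 2842 and 2706 bp by label WT and 2921 and 2775 bp by label Tg. The median log2 differences of the 14 were -0.01, 0.17 and -0.01 for H3K27ac, H3K4me1 and H3K4me3.

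Among the 11 large subunit genes, Nop2 and Noc3l had the H3K27ac differences at the 2 ends of the whole set. Noc3l (chr19:38788121-38820310), a factor of early 60S assembly, had 910 and 835 bp in WT, against 0 and 946 bp in Tg. The low value is the replicate 1 Tg library alone, which has no H3K27ac peak at this gene, and the log2 difference of -0.45 ± 0.38 (adjusted p = 0.681) was 0.13 without that library. Its H3K4me1 was 1694 and 1120 bp in WT, against 282 and 887 bp in Tg, with no overlap, a log2 difference of -0.78 ± 0.45 (adjusted p = 0.717) that was -0.12 without WT replicate 1. H3K4me3 over the same start was 1942 and 2003 bp by label WT and 1997 and 2010 bp by label Tg, nearly the same in all 4 libraries.

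Gnl3 (chr14:31012433-31019131), which encodes nucleostemin, a nucleolar GTPase abundant in stem cells, had 3058 and 5394 bp of H3K4me1 in WT and 1053 and 3782 bp in Tg. The log2 difference was -0.73 ± 0.27 (unadjusted p = 0.041, adjusted p = 0.602) and -0.40 without Tg replicate 1, and the Tg replicate 2 value lies between the 2 WT values, so the genotypes overlap. Rrs1, which helps place the 5S RNA, had 3930 and 3479 bp of H3K27ac in WT and 1982 and 2774 bp in Tg (log2 difference -0.31 ± 0.14, adjusted p = 0.458). Bop1 had 1397 and 1417 bp against 605 and 1096 bp (log2 difference -0.30 ± 0.15, adjusted p = 0.506). Of its partners, Wdr12 had 4560 and 3127 bp against 2396 and 2883 bp, and Pes1 had 1417 and 1359 bp against 1274 and 1302 bp. In base pairs both Tg libraries thus lay below both WT libraries at all 3 genes of the complex, as they did at 45.2% of all genes tested. Relative to other genes the differences of Wdr12 and Pes1 were -0.20 and 0.12. Rrp1 had 1180 and 982 bp of H3K27ac in WT and 855 and 1181 bp in Tg, and 1682 and 1559 bp of H3K4me3 by label WT and 1656 and 1560 bp by label Tg. Noc2l had the highest H3K4me3 difference, 4019 and 4862 bp by label WT against 5186 and 4589 bp by label Tg, a difference of 0.13 ± 0.15 (adjusted p = 0.926) that was -0.05 without the replicate 1 library labelled WT.

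**Figure D3:**
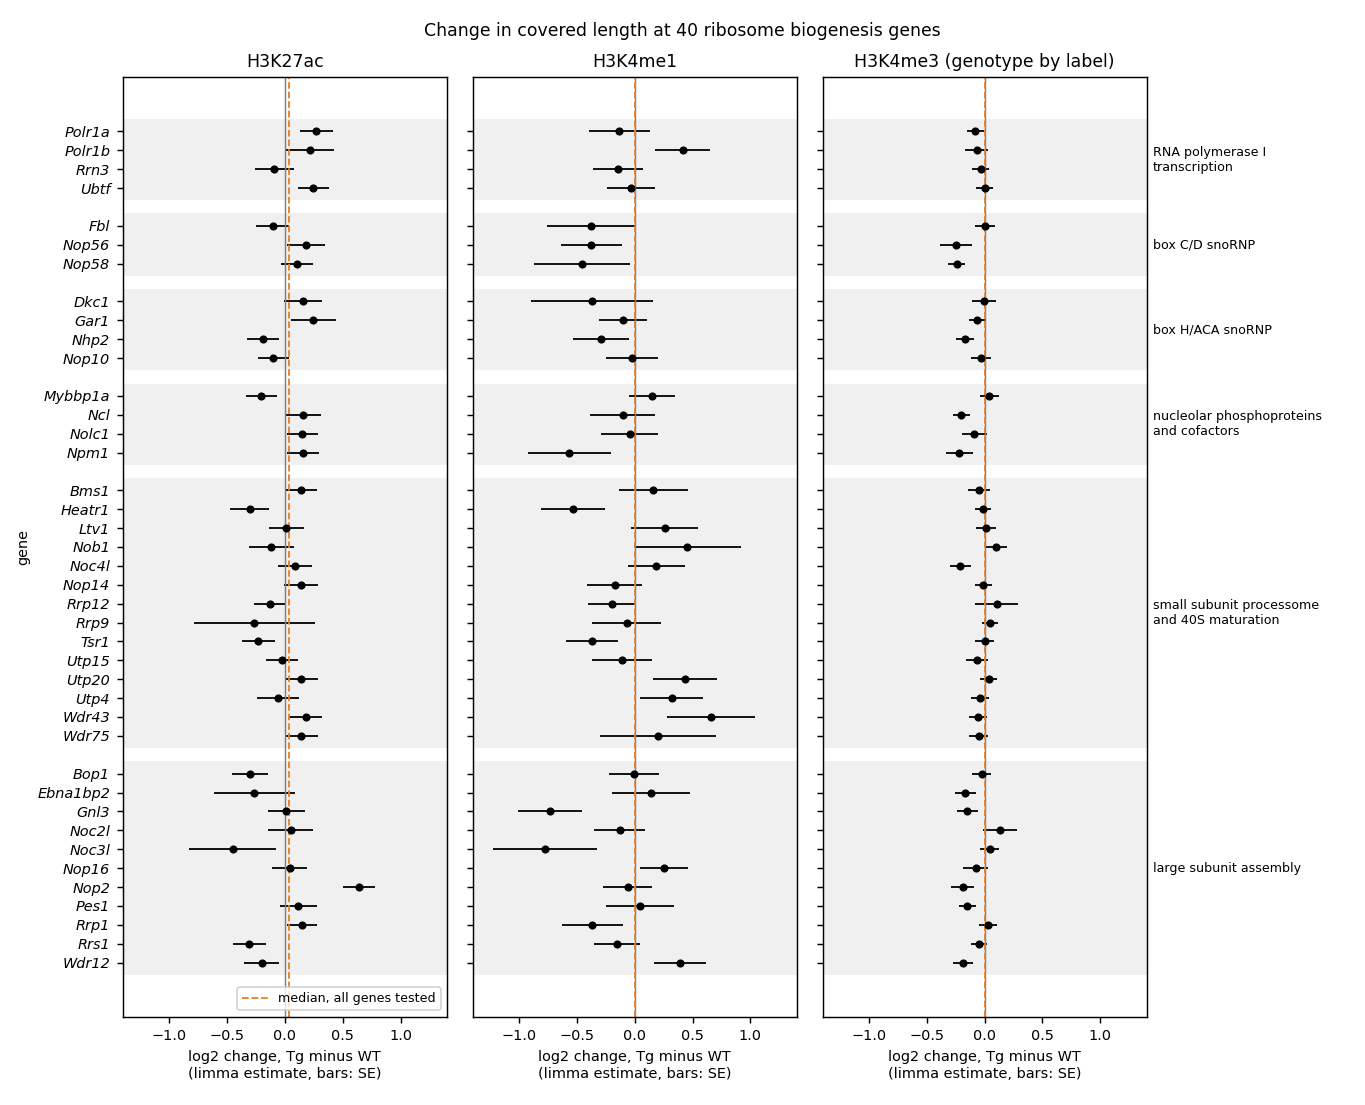
Log2 difference (Tg minus WT) of covered length for each of the 40 members in the 3 marks, with bars of 1 standard error; H3K4me3 is by label, and its sign turns over by peak name. Most bars cross or come near 0, Nop2 stands highest for H3K27ac at 0.64, and the H3K4me3 differences lie within -0.25 to 0.13.

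At Nop2 the H3K27ac peak over the start was of similar width in all 4 libraries, and the base pairs that differed between genotypes lay farther downstream. Nop2 (chr6:125131883-125144753), whose promoter with its CACGTG is printed above, had 3174 and 2686 bp of H3K27ac in WT and 3403 and 4514 bp in Tg, a log2 difference of 0.64 ± 0.14 (unadjusted p = 0.005, adjusted p = 0.175) that was 0.37 without normalization. It is the member with the highest difference and the one in which both Tg libraries exceed both WT libraries. The peak over its start was 1472 and 1501 bp in WT, against 1416 and 1464 bp in Tg. Most of the rest lies past the end of Nop2, in or at the edge of Iffo1 (chr6:125145205-125161783), whose annotated span begins 13322 bp from the Nop2 start. There, a peak that spans 16911 to 17736 bp from the Nop2 start in WT replicate 1 was 826 bp wide, and the peaks overlapping it in Tg were 1165 and 1329 bp. WT replicate 2 had no peak at that site and a separate peak of 345 bp that ends 16713 bp from the Nop2 start. Tg replicate 2 alone had further small peaks, of 346 bp inside Nop2 and 266 and 215 bp in Iffo1. Iffo1, an intermediate filament gene, had 6839 and 6048 bp in its own window in WT and 5534 and 8400 bp in Tg, a log2 difference of 0.40 ± 0.19 (adjusted p = 0.483). H3K4me1 in the Nop2 window was 6978 and 8994 bp in WT, against 5789 and 9168 bp in Tg, with overlap.

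**Figure D4:**
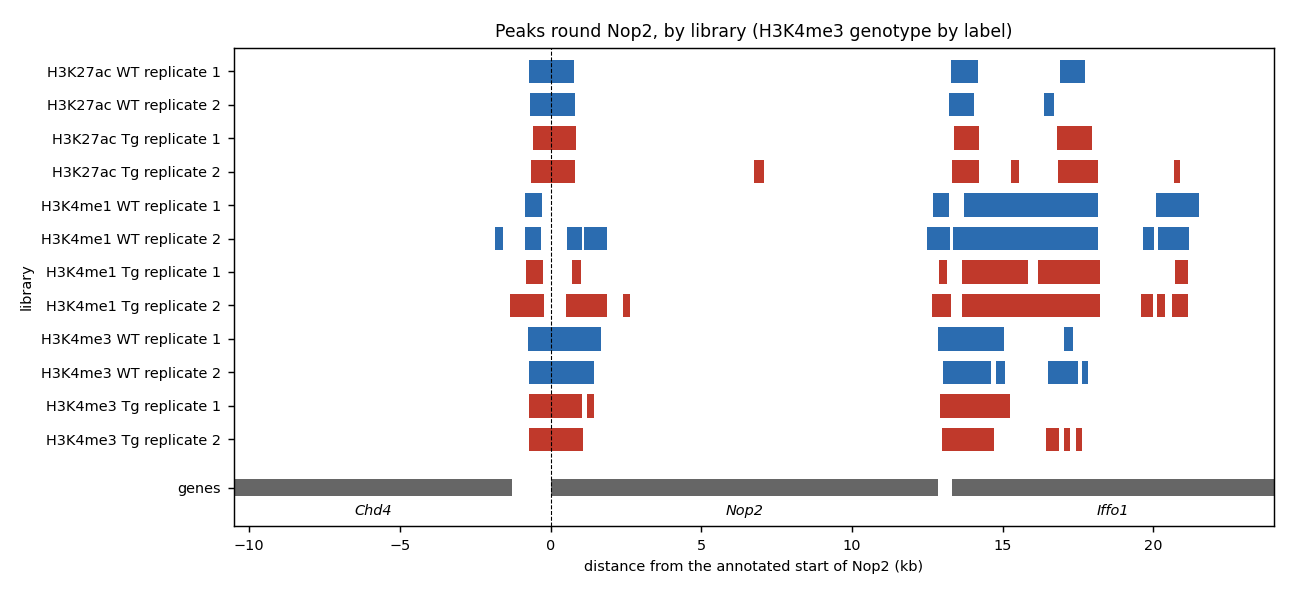
Peaks of the H3K27ac, H3K4me1 and H3K4me3 libraries round Nop2, drawn to scale by distance from the annotated Nop2 start (kb). The spans of Nop2 and its neighbours are shown, and the genotype of the H3K4me3 libraries is by label. For H3K27ac, the start peaks are of 1416 to 1501 bp in all 4 libraries. The H3K27ac peak inside Iffo1 from 16911 to 17736 bp in WT replicate 1 is 826 bp wide. The H3K27ac peaks that overlap it in Tg are 1165 and 1329 bp. The H3K27ac library of WT replicate 2 has none there and a separate peak of 345 bp next to it.

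Promoter peaks alone were compared by the summed width of the peaks over a gene's promoter windows. For H3K27ac, 35 members were tested and 0 were called, where 0% of 8257 genes were, with a median log2 difference of 0.15 against 0.05 for all genes. Log2 differences above 0 were found in 25 of the 35 members, against 4874 of the 8257 genes. Of the members, 1 (Ubtf) had both Tg widths above both WT widths, where 3.85% of genes did, and 7 had both below, where 48% did. Ubtf had start widths of 3967 and 4119 bp in WT, against 4261 and 4292 bp in Tg, a log2 difference of 0.37 ± 0.12 (unadjusted p = 0.036, adjusted p = 0.470), and it was the 1 member at an unadjusted p under 0.05, where 9.82% of genes were.

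For H3K4me3, 35 members were tested and 0 were called, where 0.0467% of 10716 genes were. The genes called are 5, none of them a member, and leaving out any single library left 0. By label, 1 member (Rrp1) lay above (14.2% of genes) and 10 lay below (18.5%), with a median log2 difference of -0.07 against -0.00 for all genes. Log2 differences above 0 by label were found in 6 of the 35 members, against 5249 of the 10716 genes. By peak name these signs turn over. Members had a median H3K4me3 start width of 2244 bp, against 2028 bp for all genes tested. At an unadjusted p under 0.05 there were 5 members, Nop58, Nop2, Nhp2, Ncl and Ebna1bp2, all narrower in the libraries labelled Tg, with adjusted p-values of 0.721 to 0.890, where 5.03% of the genes tested passed in either direction.

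The edges of these H3K4me3 peaks were read next. At Nop2 the start width was 2433 and 2154 bp by label WT and 1764 and 1805 bp by label Tg (log2 difference -0.28 ± 0.06, unadjusted p = 0.009). Its upstream edge lay 748 and 704 bp before the start by label WT and 728 and 712 bp by label Tg, and its downstream edge 1684 and 1449 bp past it against 1035 and 1092 bp. At Nop58 the start width was 4557 and 3557 bp against 3161 and 2967 bp, with the upstream edge at 682 and 719 bp against 714 and 147 bp and the downstream edge at 3874 and 2837 bp against 2446 and 2819 bp. In the replicate 2 library labelled Tg the upstream 439 bp of this domain form a peak of their own, so the replicate 2 widths differ mostly upstream. At Ncl the width was 4234 and 4317 bp against 3567 and 3639 bp, with the upstream edge at 1757 and 1812 bp against 1694 and 1622 bp and the downstream edge at 2476 and 2504 bp against 1872 and 2016 bp. The downstream edges of the peaks over these 3 starts do not overlap by label, although at Nop58 the edges of both replicate 2 libraries nearly meet. Short separate peaks follow some of these edges. At Ncl such peaks end at 3327 and 2902 bp by label WT and at 2908 bp in replicate 2 labelled Tg. Counted with them, the Ncl groups overlap. At Nop2 one ends at 1444 bp in replicate 1 labelled Tg, near the edge at 1449 bp. At Nop58 they end at 3379 bp in replicate 2 labelled WT and 2984 bp in replicate 1 labelled Tg, without overlap. Nop56, which missed the unadjusted threshold, had widths of 3982 and 3351 bp against 2339 and 3180 bp and downstream edges at 2909 and 2351 bp against 1396 and 2120 bp. By peak name the wider libraries are Tg. The replicate 1 library labelled WT has the farthest downstream edges over the members as a whole, as given above, and its part in these widths was not tested apart from leaving it out.

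The 7 members that hold small nucleolar RNA genes can be set side by side, a choice made after their values were seen. Their H3K4me3 differences by label were -0.25 for Nop56, -0.24 for Nop58, -0.20 for Ncl, -0.15 for Gnl3, -0.06 for Wdr43, -0.00 for Dkc1 and 0.00 for Tsr1. Their H3K27ac differences were 0.19, 0.10, 0.16, 0.01, 0.18, 0.16 and -0.23 in the same order. None passed the test, and the H3K27ac signs hold only relative to other genes: without normalization Nop56 was -0.05 and Ncl -0.12.

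Rrp9 shows how joined peaks can set a width. Its H3K4me3 start width was 1277 and 1097 bp by label WT and 2921 and 1214 bp by label Tg, a log2 difference of 0.52 ± 0.35 (adjusted p = 0.890). In the replicate 1 library labelled Tg, 1 peak runs from 1929 bp before the start to 991 bp past it, while in the other 3 libraries a separate upstream peak ends 288 to 329 bp before the start.

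Regions present in both libraries of one genotype and in neither of the other were rare near the members. No member lay within 10 kb of an H3K27ac region found only in Tg, where 2.35% of genes did, and 4 lay near a region found only in WT, where 4.72% did. These were Nolc1 (chr19:46082762-46083501), Nop10 (chr2:112269922-112270390), Tsr1 (chr11:74888688-74889280) and Nhp2 (chr11:51632571-51633849), with regions of 740, 469, 593 and 1279 bp that lie 2042 to 8852 bp from the nearest gene end. For H3K4me1, 3 members lay near a Tg-only region (5.96% of genes), namely Bop1 (chr15:76457502-76457928), Nop10 (chr2:112255046-112255478) and Polr1b (chr2:129108412-129109392). Near a WT-only region lay 2 members (10.7% of genes), Heatr1 (chr13:12394571-12395010), where the region of 440 bp ends 365 bp before the start, and Nhp2 (chr11:51629856-51630566). For H3K4me3 by label, 0 lay near a Tg-only region (1.93% of genes) and 2 near a WT-only region (3.21%), Wdr12 (chr1:60095425-60096139) and Noc4l (chr5:110639446-110639701).

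These counts of 0 to 4 members are small, and the regions themselves are weak. Ranked by the weaker of their 2 peaks within its list, all lie in the lower part, from the 0.433 to the 47.0 percentile of deposited −log10 q. Regions present in all 4 libraries lay near 38, 36 and 40 of the 40 members for H3K27ac, H3K4me1 and H3K4me3.

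The rest of the pathway gave the same counts of calls. Of 91 other assembly factors, none a member, all 91 were tested in each mark and 0 were called in each. At an unadjusted p under 0.05 there were 6 for H3K27ac, 5 for H3K4me1 and 3 for H3K4me3, against 12.6%, 7.97% and 4.82% of all genes tested, and the median log2 differences were 0.02, -0.04 and -0.02. H3K27ac cover in Tg lay below WT without overlap in 34 of the 91, where 45.2% of all genes did, and above in 1, where 5.51% did. Among the upstream regulators Myc, Mycn, Max, Mxd1 and Mnt, 4 were tested for H3K27ac and 5 for the other marks, and 0 were called.

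Summed cover of some marker lists of other cells differed between the genotypes of the same libraries, while few single markers passed the test. Over 7 markers of mature granulocytes (S100a8, S100a9, Ltf, Ngp, Mmp8, Ly6g and Camp), summed H3K27ac cover was 90.7 and 91.1 kb in WT and 46.7 and 40.1 kb in Tg. The whole H3K27ac lists covered 45.7 and 36.6 Mb in WT and 28.5 and 33.8 Mb in Tg. All 7 markers lay below WT in both Tg libraries, as did 45.2% of all genes tested. Of the 7 markers, 1 (Mmp8) passed the test, a call that was lost without either WT library. By label their H3K4me3 sums were 34.3 and 34.5 kb in WT and 63.1 and 37.6 kb in Tg, the opposite direction, and by peak name the same direction as H3K27ac. Their H3K4me1 sums were 39.2 and 83.5 kb in WT, against 47.9 and 89.0 kb in Tg, with overlap. Erythroid markers had H3K4me3 sums of 16.1 and 20.7 kb by label WT and 26.8 and 23.1 kb by label Tg. By label, 6 of 6 log2 differences were above 0, where 8011 of 15800 genes were, and by peak name the direction turns over. The erythroid H3K4me1 sums were 12.3 and 20.6 kb in WT, against 5.70 and 13.8 kb in Tg, with overlap. For H3K4me1, 5 of 5 log2 differences were below 0, where 7833 of 15833 genes were. For H3K27ac 2 of 3 were below 0, where 5834 of 13079 genes were. Over 4 markers of monocytes and macrophages, H3K27ac summed to 20.7 and 20.1 kb in WT, against 10.98 and 13.51 kb in Tg, with 0 called. Progenitor markers summed to 39.7 and 35.2 kb of H3K27ac in WT and 36.4 and 40.1 kb in Tg, with overlap, and 1 of the 7 tested (Mpo, higher in Tg) passed, a call that was also lost without either WT library. Whether the makeup of the sorted cells has a part in the members' values was not tested.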

How the data were processed

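The tools named in the submitters' processing notes are Bowtie2, MACS2, SAMtools, deepTools, Trim Galore and FastQC, with build mm10; versions, settings and any control library are not given in the sources used here. The authors deposited 1 narrowPeak list for each of the 12 libraries, called per sample as far as the lists show, with a deposited score, a ratio (fold enrichment), a −log10 p-value and a −log10 q-value for each peak. They hold no read counts, so depth is unknown and intervals that would need it are not given; these values depend on depth and served only to rank peaks within a list and to set a stricter threshold of 5 for −log10 q.

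Each gene's value was the number of base pairs under peaks in windows of 10 kb on both sides of its 2 annotated ends (RefSeq, GRCm38.p6). Genes with a peak in at least 2 of the 4 libraries of a mark were kept, and log2(length + 500 bp) was quantile normalized and fitted with limma 3.58.1 (R 4.3.3; lmFit, eBayes, Tg minus WT), separately for each mark and over all such genes, with p-values adjusted by Benjamini-Hochberg and called under 0.05. Start-peak widths were fitted in the same way. The script was tested on simulated data. Nothing was left out of the lists. No replicate pairing was assumed: the labels tie no replicate number to a mouse or day. The peak names of same-numbered libraries do end alike in both genotypes, in 2 and 3 for H3K27ac, 4 and 3 for H3K4me1, and F and S for H3K4me3. What these endings stand for is not given.

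The 40 members, the other lists and the tests were chosen with earlier results of these data known, so no list here is independent evidence. Values per library are given for the 4 highest and 4 lowest differences and the 3 longest and 3 shortest covers of each mark. They are also given for Npm1, Ncl, Fbl, Nop56, Dkc1, Ubtf and Polr1a. For members near regions of a single genotype, the positions of the regions are given. Sequences were taken for up to 6 members with CACGTG and members without it with wide H3K4me3; Ubtf also met that rule and is not shown, since its first window had no H3K4me3 peak in the libraries labelled WT. Marker lists tested in the same fit also held monocyte, B-lymphoid, T-lymphoid and stromal genes, of which 0 were called in any mark.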

Additional observations from a re-analysis of the deposited data

How the results depend on the processing

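The count of 0 members called held in every mark and under every alternative run. The lowest adjusted p of any member ranged from 0.0816 to 0.703 over the alternatives for H3K27ac, 0.351 to 0.99997 for H3K4me1 and 0.299 to 0.9999 for H3K4me3.

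The number of all genes called for H3K27ac, 36 as reported, was 0 with peaks of −log10 q of at least 5, 11 within 5 kb, 3 scaled to equal total length (0 higher and 3 lower), 1 without normalization, 0 with a pseudocount of 100 bp, 114 with 2000 bp (29 higher and 85 lower), 9 with no filter on genes (6 higher and 3 lower), 111 with limma's trend and robust options (28 higher and 83 lower), and 0 to 117 without each replicate in turn. With no filter, 1 gene was called for H3K4me1 and 4 for H3K4me3. The number called for H3K4me3 start widths, 5 as reported, was 19 scaled to equal total, 18 without normalization and 0 without any single replicate.

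A block on replicate number gave 6 genes for H3K27ac, 0 for H3K4me1 and 0 for H3K4me3 start widths, and no member's call differed. With 2 pairs a mark the numbers were not taken to pair the samples: same-numbered libraries deviated with correlations of -0.199, 0.209 and -0.0833 across genes in H3K27ac, H3K4me1 and H3K4me3. The value for H3K4me1 is positive, and the extent of its lists follows the number. The crossed pairing for H3K27ac, added after seeing the data, called 10 genes.

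The members' median log2 difference for H3K27ac was 0.088 with the stricter q, 0.10 within 5 kb, 0.061 scaled to equal total, -0.18 without normalization, 0.029 with 2000 bp and -0.0028 to 0.065 without each replicate. For H3K4me1 it was -0.13 with the stricter q, -0.14 without normalization, -0.052 with 2000 bp and -0.12 to -0.035 without each replicate. For H3K4me3 it was -0.071 within 5 kb, -0.032 with 2000 bp and -0.083 to -0.020 without each replicate.

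Members without overlap between genotypes, with Tg above, were 2 within 5 kb for H3K27ac and 1 each for H3K4me1 and H3K4me3 with the stricter q, and 2 to 6, 0 to 16 and 2 to 12 without each replicate in the 3 marks. With Tg below, H3K4me1 gave 0 with the stricter q and 1 over the whole gene, and leaving out a replicate gave 16 to 34, 2 to 26 and 13 to 32. Members near Tg-only regions were 1 in each mark with the stricter q, 1 for H3K4me1 within 5 kb, and 0 to 4, 3 to 17 and 1 to 3 without a replicate. Members near WT-only regions were 1 and 0 for H3K27ac and H3K4me1 with the stricter q, 1 in each mark within 5 kb, 4 and 1 for H3K4me1 and H3K4me3 with regions counted as present where peaks cover at least 50% of them, and 4 to 12, 3 to 28 and 2 to 10 without a replicate. Fewer libraries make such counts larger by construction.

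Some small differences of single members turned over. For H3K27ac, Polr1a was -0.48 over the whole gene, and without normalization Ubtf was -0.055, Npm1 -0.054, Ncl -0.12, Nop56 -0.052 and Dkc1 -0.038. Noc3l ranged from -0.94 to 0.13 without each replicate. For H3K4me1, Polr1a was 0.50 with the stricter q and Polr1b -0.12 within 5 kb, and without each replicate Nob1 ranged from -0.23 to 1.17, Ncl from -0.42 to 0.22, Fbl from -0.90 to 0.13, Dkc1 from -0.96 to 0.26, Ubtf from -0.13 to 0.064 and Polr1a from -0.43 to 0.15. For H3K4me3, Ubtf was -0.017 with the stricter q and -0.0070 over the whole gene, Polr1a 0.0037 over the whole gene and Rrp12 -0.090 within 5 kb, and without each replicate Noc2l ranged from -0.050 to 0.32, Rrp12 from -0.13 to 0.33, Fbl from -0.071 to 0.085, Dkc1 from -0.12 to 0.12 and Ubtf from -0.044 to 0.042. The causes were not tested.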
